A study of Mus musculus with 8 samples.

Results

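The genes described here encode splicing and RNA-binding factors, and were taken as the autosomal protein-coding genes whose symbol starts with Hnrnp, Srsf, Rbm, Sf3a, Sf3b or Prpf. In muscle stem cells (MuSCs) they held 211 of the 27837 autosomal R-loop peaks, in 68 of 7627 protein-coding genes with a peak. R-loops were mapped by DRIP-seq, in which the S9.6 antibody pulls RNA:DNA hybrids from sonicated genomic DNA. The Ctrl group carried Pax7CreERT and wild-type Kmt5b (Suv4-20h1WT in the labels). The Kmt5b sKO group carried Pax7CreERT and the Kmt5b knockout (Suv4-20h1KO). Both groups thus carried the Cre, which is expressed from the Pax7 locus and is active after tamoxifen, so deletion was limited to Pax7-expressing cells and their descendants. Per the study's methods the mice were adult C57BL/6 of both sexes, and the MuSCs were purified with magnetic beads and expanded in culture. Each genotype had 3 libraries of cultured MuSCs, which the methods call biological replicates.

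Splicing removes introns mostly while RNA polymerase II is still transcribing. SF3A and SF3B are parts of the U2 small nuclear ribonucleoprotein that recognises the branch point, and PRPF proteins belong mostly to the tri-snRNP and the catalytic spliceosome. SR proteins (Srsf genes) and hnRNPs (Hnrnp genes) bind the nascent transcript, where they steer splice site choice and package the RNA, and loss of such coating is known to favour R-loops. The Rbm prefix is a naming class and not a single family: Rbm20 and Rbm24 are splicing regulators of striated muscle, whereas Rbms1, Rbms2 and Rbms3 bind single-stranded nucleic acids and are not core splicing factors. Rbms3 and Rbms1 held 59 of the 211 peaks, so counts are also given without them. The values below are R-loop signal on these genes and say nothing of the level of their proteins.

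Sequence from the middle of 4 peaks is shown, because the peaks gained in Kmt5b sKO held more masked repeat sequence than the others. Each is the central 300 bases of the peak in GRCm38, read 5′ to 3′ on the strand of the gene (minus for Sf3b2, Sf3b1 and Rbms3, plus for Hnrnpa3), with capitals for bases that RefSeq's genome marks as repeats or low complexity. The peak with the largest gain lay in Sf3b2 and overlapped 2 exons, but its central window was intronic (chr19:5283151-5283450), with 266 of 300 bases masked. The largest gain in Sf3b1 was intronic, and its window (chr1:55021851-55022150) had 132 masked bases. The peak called lower lay in an intron of Rbms3, and its window (chr9:117132351-117132650) had 0 masked bases. Of these genes' peaks, the densest in control cells lay in Hnrnpa3. Its window (chr2:75662251-75662550) overlapped an annotated exon and had 117 masked bases. Over the whole peaks, in the same order from Sf3b2 to Hnrnpa3, the masked share was 52.1%, 52.2%, 17.4% and 18.7%. Across 20069 tested gene-body peaks the median masked share of this window was 19.7%, with quartiles of 7.33% and 44.3%, against 88.7%, 44.0%, 0% and 39.0% in these 4 windows.

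Sf3b2: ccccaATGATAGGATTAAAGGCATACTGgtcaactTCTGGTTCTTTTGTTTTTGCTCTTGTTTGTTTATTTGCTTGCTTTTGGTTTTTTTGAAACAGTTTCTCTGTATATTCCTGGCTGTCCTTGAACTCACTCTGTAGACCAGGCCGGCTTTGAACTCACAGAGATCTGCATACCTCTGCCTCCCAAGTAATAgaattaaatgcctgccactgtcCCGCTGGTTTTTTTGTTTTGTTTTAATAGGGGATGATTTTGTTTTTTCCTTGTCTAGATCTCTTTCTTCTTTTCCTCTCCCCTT

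Sf3b1: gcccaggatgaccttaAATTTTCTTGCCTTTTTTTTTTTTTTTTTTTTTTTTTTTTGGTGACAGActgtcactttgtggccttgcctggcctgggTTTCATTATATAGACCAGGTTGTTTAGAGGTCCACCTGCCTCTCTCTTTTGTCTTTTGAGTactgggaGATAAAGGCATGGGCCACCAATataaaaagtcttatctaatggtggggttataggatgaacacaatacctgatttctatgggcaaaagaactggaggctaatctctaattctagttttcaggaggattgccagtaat

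Rbms3: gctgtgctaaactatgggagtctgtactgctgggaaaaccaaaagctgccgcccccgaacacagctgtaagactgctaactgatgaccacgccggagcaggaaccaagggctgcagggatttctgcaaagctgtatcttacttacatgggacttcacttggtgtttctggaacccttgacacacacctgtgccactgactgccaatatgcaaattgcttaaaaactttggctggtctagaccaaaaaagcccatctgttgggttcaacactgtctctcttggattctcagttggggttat

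Hnrnpa3: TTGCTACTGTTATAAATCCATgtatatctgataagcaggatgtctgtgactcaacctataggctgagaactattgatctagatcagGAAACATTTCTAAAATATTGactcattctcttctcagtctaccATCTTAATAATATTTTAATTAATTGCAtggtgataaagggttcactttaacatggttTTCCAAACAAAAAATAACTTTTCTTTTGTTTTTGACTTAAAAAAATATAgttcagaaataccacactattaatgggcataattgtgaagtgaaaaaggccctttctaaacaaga

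The deposited values were spike-in normalized scores per peak, and they summed to between 3893768 and 4930261 per library over all peaks. Ctrl replicate 2 stood above the other Ctrl libraries: its median score over the 211 peaks was 86, beside 68 and 76 in the first and last Ctrl library, and the Kmt5b sKO libraries had 98, 99 and 97. Every Kmt5b sKO median was thus above every Ctrl median. The mean over the same peaks, which long peaks dominate, was 199, 247 and 199 in Ctrl and 221, 230 and 226 in Kmt5b sKO, and overlapped. Kmt5b itself had 1 peak, scored 412, 658 and 420 in Ctrl and 440, 449 and 484 in Kmt5b sKO, which was not taken as a check of the deletion, since the place of the deleted sequence relative to the peak was not examined here. Of the marker genes, 5 of 8 of MuSCs and myoblasts had a peak, Pax7 with 9, as had 2 of 4 myotube markers and 1 of 3 endothelial ones, and no fibro-adipogenic or immune marker had any.

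Of the 211 peaks, 197 were gene-body peaks, centred inside the gene and over 1 kb from its start. Only 4 overlapped the gene start and 30 the gene end. An exon was touched by 125, and 26 genes had a single peak. Lengths ran from 400 to 41000 bp, and the score per kb in Ctrl from 19.8 to 154. Beside the 19875 other tested gene-body peaks, their 195 tested gene-body peaks were richer in exons and in G on the coding strand: the median exonic share was 3.95% against 0%, and the median excess of G over C on the coding strand, as a share of G + C, was 0.0666 against 0.0480. Median Ctrl score per kb was close, at 30.2 against 29.0.

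In Kmt5b sKO the R-loop signal was higher on 38 and lower on 1 of the 209 tested peaks, called where limma gave a change of more than 1.5-fold at an adjusted p below 0.1. That was 18.2% higher, in 21 of the 68 genes, against 32.9% of all 25815 tested peaks, and 0.478% lower against 0.883%. Of other protein-coding gene-body peaks 23.0% were higher and 1.06% lower, and of those with an exon 13.9% were higher. The median log2 fold change was 0.24 over these peaks, 0.35 over all tested peaks and 0.25 over other protein-coding gene-body peaks. Without Rbms1 and Rbms3, 29 of 150 peaks were higher and 0 lower, with a median of 0.25. On adjusted p alone, 60 peaks were higher, against 42.0% of all peaks, and 9 lower, against 3.15%. All 3 Kmt5b sKO libraries exceeded all 3 Ctrl libraries at 60 peaks (28.7%, against 41.5% of all tested peaks) and lay below them at 9 (4.31% against 3.81%). Of the 38 peaks called higher, 30 were separated in this way. The split of calls depended on the scaling. With the same total in every library 18 were higher and 6 lower, with each library centred on its median peak 3 and 25, and after quantile normalization 2 and 19, while the median over all tested peaks moved from 0.35 to 0.15, -0.11 and -0.01.

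**Figure D1:**
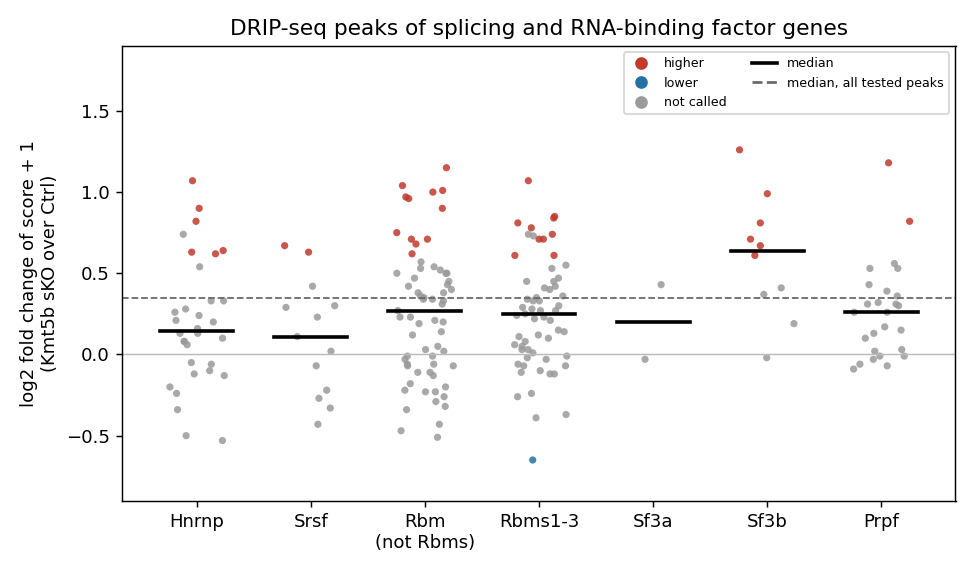
Log2 fold change of score + 1 (Kmt5b sKO over Ctrl) of each tested peak by gene class, with bars at class medians and a dashed line at the median of all tested peaks, 0.35. Sf3b, with a median of 0.64, lies above the line on the deposited scale; the medians of Hnrnp, Srsf, Rbm, Sf3a and Prpf turn negative when libraries are centred on the median peak.

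The genes of the SF3B complex had the largest share of gained peaks. Of 10 peaks in 5 Sf3b genes, 6 rose, in 4 genes, and none fell, against 32.9% of all tested peaks higher. These peaks were short (median 1800 bp) and 39.1% masked at the median. Of other gene-body peaks, 35.9% of those from 1400 to 2000 bp and 53.5% of those over 40% masked were higher. The median log2 fold change was 0.64, and it stayed above the median of all tested peaks with equal totals (0.44 against 0.15), centring (0.18 against -0.11) and quantile normalization (0.24 against -0.01), although the count of peaks called higher went to 3, 1 and 1. Whether Sf3b differed from the other classes was not tested, since peaks of a gene are not replicates and the class has 5 genes.

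Sf3b2 encodes a U2-associated subunit, and its 1.4-kb peak at chr19:5282601-5284000, whose repeat-rich centre is printed above, scored 38, 34 and 25 in Ctrl and 106, 73 and 61 in Kmt5b sKO. The groups did not overlap, and the log2 fold change was 1.26 (SE 0.28, adjusted p = 7.2e-05 in limma). Its other peak, 3.6 kb long and 21.5% masked, scored 89, 111 and 75 against 72, 94 and 106, and the groups overlapped (log2 fold change -0.02, SE 0.21, adjusted p = 0.96 by limma). So the gain was limited to 1 of the 2 peaks of this gene.

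Sf3b1, the branch-point binding scaffold of the complex, gained signal at all 3 of its peaks. The intronic one at chr1:55021201-55022800, whose centre is shown above, scored 44, 48 and 41 in Ctrl and 98, 71 and 101 in Kmt5b sKO, with no overlap (log2 fold change 0.99, SE 0.24, adjusted p = 4.0e-04 in limma). Its call was lost after centring (0.53) and after quantile normalization (0.49). The other peaks, near the 3′ end of the gene, had log2 fold changes of 0.67 and 0.81. At the former the groups overlapped (36, 54 and 28 against 61, 50 and 74). At the latter they did not (32, 48 and 34 against 55, 75 and 70). Summed over the gene, the score was 112, 150 and 103 in Ctrl and 214, 196 and 245 in Kmt5b sKO, a log2 fold change of 0.85 (SE 0.17, adjusted p = 9.5e-06 in limma). Sf3b4 had a single peak, centred just past its annotated end, that scored 206, 168 and 171 against 252, 303 and 279 (log2 fold change 0.61). The call for Sf3b4 on the gene score was lost without Ctrl replicate 2 (0.56), Ctrl replicate 3 (0.57) or Kmt5b sKO replicate 2 (0.55). Sf3b3, the densest gene of the class, was covered over 85.8% of its length by a 33.8-kb peak and did not pass (log2 fold change 0.19, adjusted p = 0.26 by limma).

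The SF3A genes had 2 tested peaks and no call. Sf3a3 scored 117, 101 and 107 in Ctrl and 170, 118 and 154 in Kmt5b sKO. The groups did not overlap, but the log2 fold change of 0.43 (SE 0.19, adjusted p = 0.057 in limma) was under the fold threshold, and it was -0.03 after centring. Sf3a1, with a 13.2-kb peak, scored 530, 725 and 594 against 585, 620 and 587, a difference within the spread of Ctrl (log2 fold change -0.03, SE 0.14).

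Among the 11 Prpf genes, 2 of 26 peaks rose (7.69%, against 32.9% of all tested peaks and 23.0% of other gene-body peaks). None fell (against 0.883% of all tested peaks). The median log2 fold change was 0.26, against 0.35 over all tested peaks. Prpf38a, a factor needed for spliceosome activation, had the largest change, at a 0.8-kb peak 736 bp from its start that was 68.8% masked. It scored 12, 31 and 20 in Ctrl and 52, 65 and 28 in Kmt5b sKO, so that the groups overlapped (log2 fold change 1.18, SE 0.41, adjusted p = 0.014 in limma). Its Ctrl mean of 21.0 was under the minimum of 30, so it was tested only through its Kmt5b sKO scores (mean 48.3). The call was lost without Ctrl replicate 1 (0.85), after centring (0.72) and after quantile normalization (0.54). Without Kmt5b sKO replicate 2 the mean score of this peak was under the minimum, and it was not tested. Prpf3, of the U4/U6 snRNP, was called on the gene score, from 149, 193 and 145 to 194, 286 and 257 (log2 fold change 0.59, SE 0.16, adjusted p = 0.0015 in limma), close to the fold threshold. That call was lost without Ctrl replicate 1 (0.53), Ctrl replicate 3 (0.51), Kmt5b sKO replicate 2 (0.47) or Kmt5b sKO replicate 3 (0.55).

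Prpf8, the core of the catalytic spliceosome, scored 409, 442 and 364 over its 3 peaks in Ctrl and 473, 538 and 589 in Kmt5b sKO. The groups did not overlap, and the log2 fold change of 0.40 (SE 0.14, adjusted p = 0.016 in limma) was under the fold threshold. The smallest change of the class was at Prpf19, an E3 ligase needed for spliceosome activation, with 313, 446 and 337 against 329, 337 and 351 (log2 fold change -0.09). Prpf38b had the highest Ctrl score per kb of its class, 69.2, and a log2 fold change of -0.03.

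The 17 hnRNP genes had 6 of 32 tested peaks higher, in 4 genes. That was 18.8%, against 32.9% of all tested peaks and 23.0% of other gene-body peaks. None was lower (against 0.883%), and the median was 0.15, against 0.35. Hnrnpc, whose protein wraps nascent transcripts and shields cryptic splice sites, held 3 of the 6. Its 1.4-kb intronic peak at chr14:52079201-52080600 scored 27, 42 and 26 in Ctrl and 59, 82 and 59 in Kmt5b sKO, without overlap (log2 fold change 1.07, SE 0.29, adjusted p = 0.0018 in limma). Another called peak scored 46, 36 and 36 against 42, 61 and 86 (log2 fold change 0.62). The last scored 38, 55 and 35 against 45, 72 and 85 (0.63), and the groups overlapped at each of these. Over the 4 peaks of the gene the score went from 170, 183 and 162 to 255, 293 and 301, a log2 fold change of 0.72 (SE 0.16, adjusted p = 6.4e-05 in limma).

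Hnrnpa3, which encodes an A/B-type hnRNP that shuttles and binds mRNA, went the other way. Its 6-kb peak at chr2:75659401-75665400, with 8 exons and the highest Ctrl density of all 211 peaks, scored 816, 1159 and 798 in Ctrl and 587, 639 and 666 in Kmt5b sKO. Every Kmt5b sKO library was below every Ctrl library, and the log2 fold change was -0.53 (SE 0.14, adjusted p = 7.8e-04 in limma), short of the fold threshold on the deposited scale. It passed without Ctrl replicate 1 (-0.61) or Ctrl replicate 3 (-0.63), with equal totals (-0.74) and after centring (-0.99). It came to -0.58 after quantile normalization and -0.36 without Ctrl replicate 2, the highest Ctrl library, and did not pass in either. Hnrnpa2b1, a reader of methylated RNA that also regulates splicing, scored 620, 876 and 629 against 563, 629 and 580, which overlapped (log2 fold change -0.24, SE 0.14, adjusted p = 0.15 in limma).

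The 8 Srsf genes had 2 of 13 peaks higher (15.4%, against 32.9% of all tested peaks) and none lower (against 0.883%). All 13 touched an exon, and of other gene-body peaks with an exon 13.9% were higher. Their median log2 fold change, 0.11, was the lowest class median. The Srsf11 peak, in a gene for an SR-related protein, scored 38, 54 and 32 in Ctrl and 77, 58 and 61 in Kmt5b sKO (log2 fold change 0.67, SE 0.27, adjusted p = 0.038 in limma). The groups only just separated, and the call was lost without Ctrl replicate 1 (0.63), Ctrl replicate 3 (0.51) or Kmt5b sKO replicate 1 (0.55). It was also lost with equal totals (0.47), after centring (0.21), after quantile normalization (0.13) and with a pseudocount of 10 (0.57). Srsf1, the founding SR protein, had 1 peak over 84.6% of the gene that scored 252, 348 and 273 in Ctrl and 225, 187 and 231 in Kmt5b sKO. Each Kmt5b sKO library was lower, with a log2 fold change of -0.43 (SE 0.16, adjusted p = 0.021 in limma) that did not reach the fold threshold. Srsf4 had the highest Ctrl score per kb of the class, 73.6, and scored 2590, 2865 and 2233 against 2041, 2203 and 2088, again without overlap (log2 fold change -0.27, SE 0.13, adjusted p = 0.085 in limma).

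**Figure D2:**
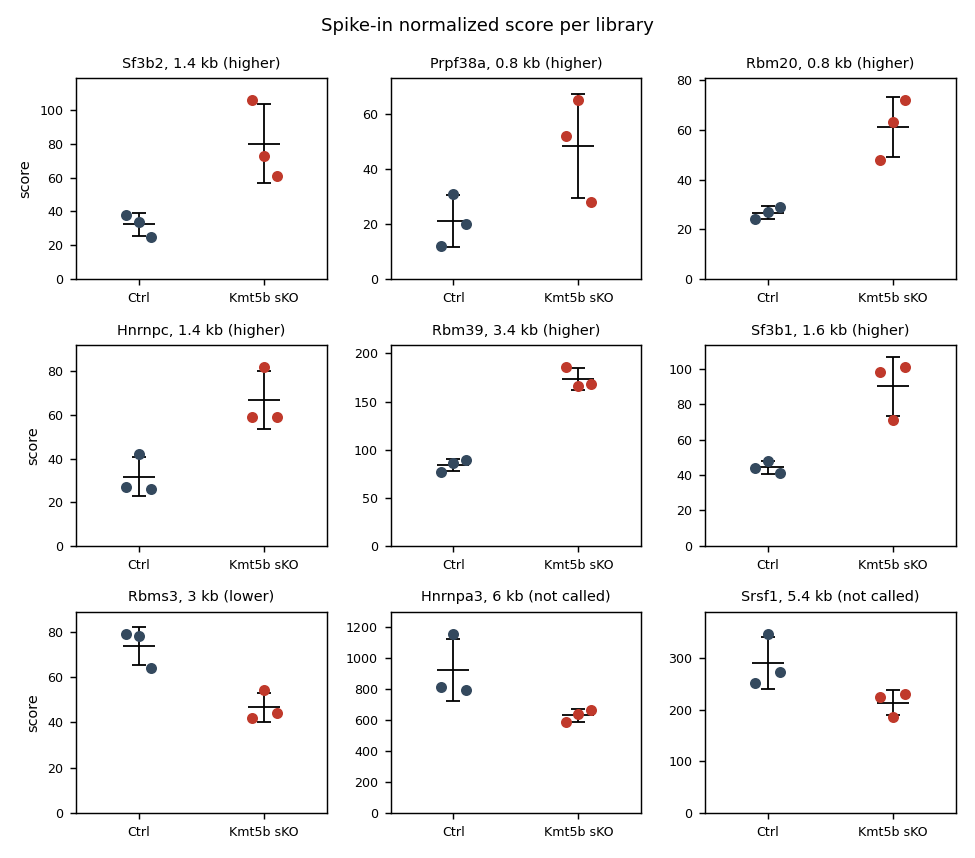
Spike-in normalized score of 9 peaks in each library (points), with mean and SD (bars, n = 3); axes start at 0. Kmt5b sKO points lie above all Ctrl points for Sf3b2, Rbm20, Hnrnpc, Rbm39 and Sf3b1, overlap for Prpf38a, and lie below for Rbms3, Hnrnpa3 and Srsf1.

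The Rbm prefix held 126 of the tested peaks. Of these, 22 rose (17.5%, against 32.9% of all tested peaks and 23.0% of other gene-body peaks) and 1 fell (0.794%, against 0.883%). The median was 0.26. Without Rbms1, Rbms2 and Rbms3, 12 of 65 rose (18.5%) and 0 fell (median 0.27). Rbm20, which controls titin splicing in striated muscle, rose at 2 of 7 peaks. Its 0.8-kb intronic peak at chr19:53746601-53747400, 75.8% masked, scored 24, 27 and 29 in Ctrl and 48, 63 and 72 in Kmt5b sKO (log2 fold change 1.15, SE 0.32, adjusted p = 0.0021 in limma). The groups were far apart there, but over the whole gene the score was 496, 695 and 525 against 609, 641 and 627 and overlapped (log2 fold change 0.14, adjusted p = 0.40 by limma), turning negative under every other scaling.

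Rbm39, which encodes a U2AF-like splicing factor, had the smallest p of all these peaks. Its 3.4-kb peak scored 77, 86 and 89 in Ctrl and 186, 166 and 168 in Kmt5b sKO, a log2 fold change of 1.04 (SE 0.19, adjusted p = 1.8e-06 in limma). Its groups were separated by more than the spread within either. The call held after quantile normalization (0.73) and was lost after centring (0.58). Peaks of Rbms2, Rbm6 and Rbm25, without an exon and between 1.2 and 1.6 kb long, were also among the 8 largest separated gains. The Rbms2 peak scored 34, 32 and 21 against 54, 69 and 60 (log2 fold change 1.07), the Rbm6 peak 43, 38 and 32 against 85, 65 and 80 (1.01), and the Rbm25 peak 50, 47 and 40 against 78, 111 and 89 (1.00). After centring these came to 0.61, 0.55 and 0.54, and after quantile normalization to 0.48, 0.46 and 0.50. The calls were lost in each. Rbm25, a regulator of apoptotic gene splicing, had 3 of its 6 tested peaks called higher, and its longest, of 14 kb, was not (0.40). Rbm26, which with Rbm25, Rbm20, Rbms1 and Rbms3 was among the genes with most peaks, had 7 and no call (0.36 on the gene score, SE 0.13).

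Rbm38, an RNA-binding target of p53, had a gained peak that was 8.76% masked, where the median of the gained peaks was 40.7%. This 5-kb intronic peak scored 131, 192 and 118 in Ctrl and 218, 240 and 271 in Kmt5b sKO, with no overlap (log2 fold change 0.75, SE 0.17, adjusted p = 1.2e-04 in limma). Rbm28, a nucleolar protein linked to spliceosomal snRNPs, rose on the gene score from 125, 137 and 134 to 252, 179 and 188 (log2 fold change 0.62, SE 0.17, adjusted p = 0.0013 in limma). That call rested on Kmt5b sKO replicate 1, without which the value was 0.47. Rbm24, a myogenic splicing regulator, scored 468, 568 and 488 against 444, 450 and 431, each lower than Ctrl, without passing (log2 fold change -0.20, SE 0.14, adjusted p = 0.25 in limma). Rbm12b2 had the highest score per kb of peak of the class, 70.6, but nearly all of it came from a 19.6-kb peak that mostly lay past the 3′ end of the gene, and reads of this gene and the related Rbm12b1 may be hard to tell apart.

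Rbms3, at 1300 kb by far the longest gene of the set, had 40 peaks. Of these, 6 rose (15.0%, against 32.9% of all tested peaks and 23.0% of other gene-body peaks) and 1 fell (2.50%, against 0.883%). Its peaks began 614 kb from the start site and none lay earlier, so the first 47.2% of the gene was without a peak. Changes varied along the gene. Among 18 peaks between 45 and 65% of its length the median log2 fold change was -0.00, with 2 higher and 1 lower, and among 22 peaks beyond it was 0.35, with 4 higher and 0 lower. Position and peak length were not separated, as most peaks of 5 kb or more lay in the former stretch. By length, the median was -0.01 over the 9 Rbms3 peaks of 5 kb or more and 0.33 over the 31 shorter ones. The peak called lower, at chr9:117131001-117134000 and free of masked bases at its centre as printed above, scored 79, 78 and 64 in Ctrl and 42, 54 and 44 in Kmt5b sKO, without overlap (log2 fold change -0.65, SE 0.25, adjusted p = 0.029 in limma). The call was lost without Ctrl replicate 1 (-0.60) or Kmt5b sKO replicate 1 (-0.58). Its neighbour of 16.6 kb, singled out after its values were seen, scored 509, 606 and 501 against 447, 391 and 411, a log2 fold change of -0.37 (SE 0.14, adjusted p = 0.030 in limma), also without overlap.

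Rbms1 had 19 peaks, spread from 10.7 to 211 kb from its start. Of these, 3 rose (15.8%, against 32.9% of all tested peaks and 23.0% of other gene-body peaks) and 0 fell (against 0.883%). The fold change was positive at 17 of the 19, with a median of 0.23. In both genes the long peaks did not pass: of peaks of 5 kb or more, 0 of 9 were called in Rbms3 (median -0.01) and 0 of 8 in Rbms1 (median 0.22). Summed per gene, Rbms3 scored 5306, 6245 and 5400 against 5856, 6178 and 6070 (log2 fold change 0.10, SE 0.12), and Rbms1 4439, 5537 and 4546 against 5645, 5686 and 5662 (0.23, SE 0.12, adjusted p = 0.11 by limma). The Ctrl and Kmt5b sKO libraries overlapped for Rbms3 and were separated for Rbms1.

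**Figure D3:**
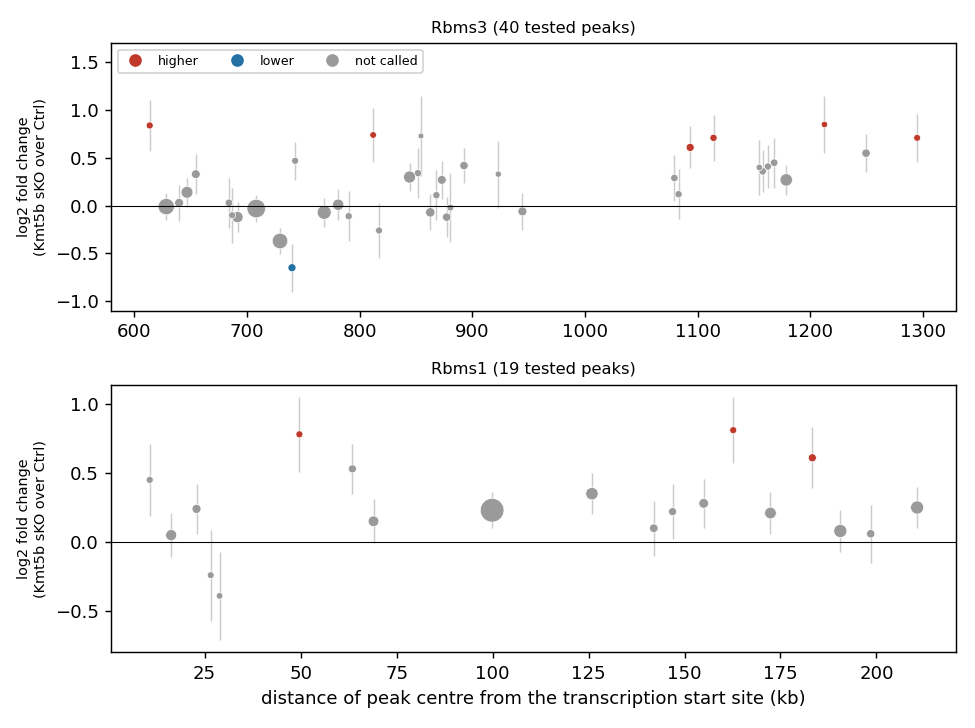
Log2 fold change (Kmt5b sKO over Ctrl, bars SE) of each tested Rbms3 and Rbms1 peak against the distance of its centre from the start site in kb; larger points are longer peaks. Rbms3 has no point before 614 kb, and its 4 called peaks beyond 1000 kb are all higher.

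Peak length and repeat content went with the change, in these genes as in others. Over the 209 tested peaks the Spearman correlation with log2 fold change was -0.43 for length and 0.60 for the masked share, and over all 25815 tested peaks it was -0.57 and 0.51; the points share libraries and many share a gene. The 38 gained peaks were shorter (median 1600 bp) and richer in masked bases (median 40.7%) than the other 171 (3400 bp and 21.9%). No gained peak was longer than 5800 bp. Of 37 peaks with over 40% masked bases, 20 rose (54.1%), and of 172 with less, 18 did (10.5%). In other protein-coding gene bodies the same shares were 53.5% and 15.3%. Among peaks with at least 50% exonic sequence, 3 of 27 rose (11.1%), against 18.8% of 1492 such peaks of other genes. With any exon the shares were alike, 17 of 124 (13.7%) against 13.9% of 9666 gene-body peaks of other genes. Only uniquely aligned reads entered the scores. The part of read mapping in repeats in these relations was not tested.

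At like length, the share called higher among gene-body peaks of splicing and RNA-binding factor genes was below that of other genes in each length class, by an amount within counting error. The classes divided all tested peaks into 5 groups of similar size. Up to 1200 bp, 8 of 17 were higher (47.1%, exact 95% interval 23.0 to 72.2) against 57.2% of other gene-body peaks. From 1400 to 2000 bp it was 19 of 64 (29.7%, 18.9 to 42.4) against 35.9%, and from 2200 to 3000 bp 6 of 30 (20.0%, 7.71 to 38.6) against 20.6%. From 3200 to 5800 bp it was 2 of 31 (6.45%, 0.791 to 21.4) against 11.4%. Above that it was 0 of 53 (exact 95% interval 0 to 6.72) against 4.0%. In each class the other peaks' share lay inside the 95% interval, so no difference was detectable at these numbers, and peaks of 1 gene are not independent, which makes the intervals too narrow. At the shares of the other peaks, 44.5 of the 195 would have been higher, and 35 were.

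**Figure D4:**
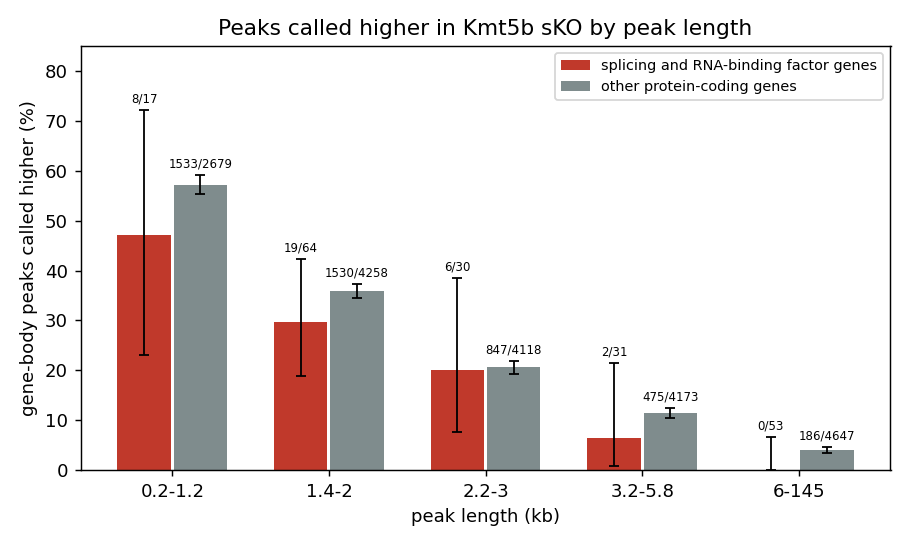
Share of gene-body peaks called higher in Kmt5b sKO (%) by peak length (kb), for splicing and RNA-binding factor genes and other protein-coding genes; error bars are exact 95% binomial intervals and labels give called over tested. The share goes from 47.1% to 0% in the first and from 57.2% to 4.0% in the second.

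On the score summed per gene, 7 of the 68 genes were called higher (10.3%, against 25.7% of 7348 tested protein-coding genes) and 0 lower (against 0.286%). The 7 were Rbms2 (log2 fold change 0.95, SE 0.23), Sf3b1, Rbm38, Hnrnpc, Rbm28, Sf3b4 and Prpf3. Rbms2 went from 60, 63 and 41 to 116, 103 and 97. On limma adjusted p alone 22 genes were higher, against 44.7% of all, and 4 lower, against 3.25%. These 4 were Hnrnpa3, Srsf1, Srsf4 and, named here after its values were seen, Hnrnpu, a nuclear matrix hnRNP (1156, 1643 and 1163 against 1094, 975 and 1016, log2 fold change -0.34). All 3 Kmt5b sKO libraries exceeded Ctrl at 20 genes, against 43.0% of all tested genes, and lay below it at 6, against 3.93%. In the 4 genes named, every Kmt5b sKO library was below every Ctrl library. The median over the genes was 0.13, against 0.29 over all tested genes, and -0.19 after centring.

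How much of a gene its peaks covered went with the direction. Of 16 genes covered over at least 80% of their length, 0 were called and 9 had a log2 fold change below 0, with a range of -0.43 to 0.28 and a median of -0.05. Of 22 genes covered under 30%, 5 were called higher, with a median of 0.40. Over all tested genes the medians were 0.12 in 676 genes covered at least 80% and 0.43 in 4283 covered under 30%, with 8.28% and 37.4% called higher. The split points were chosen with the data known.

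**Figure D5:**
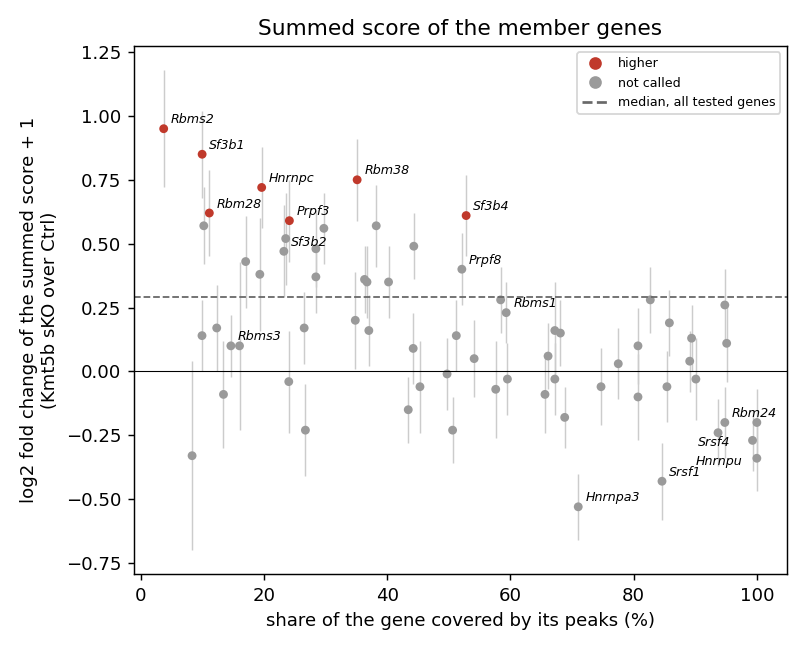
Log2 fold change of the summed score + 1 (Kmt5b sKO over Ctrl, bars SE) of the 68 genes against the share of the gene covered by its peaks (%), with the median of all tested genes, 0.29, dashed. The called genes, from Prpf3 at 0.59 to Rbms2 at 0.95, have peaks over at most 52.8% of the gene, and Hnrnpa3, Srsf1, Hnrnpu and Srsf4, lowest at -0.53 to -0.27 among genes covered over at least 71.0%, lie to the right.

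Splicing genes that the prefixes do not take were set beside these, and beside all tested peaks (32.9% higher, 0.883% lower, median 0.35) and other protein-coding gene-body peaks (23.0% higher, median 0.25). Of 56 core spliceosome genes, 43 had a peak, and 12 of their 90 tested peaks were higher (13.3%) and 1 lower, with a median of 0.13. The larger gains were at Aqr, an intron-binding helicase (19, 22 and 32 against 71, 53 and 45, log2 fold change 1.19), and Lsm2, of the U6 ring (28, 24 and 17 against 52, 55 and 42, 1.10). The lower one was Snrpf, of the Sm ring (112, 184 and 137 against 83, 104 and 89, -0.62, SE 0.19, adjusted p = 0.0058 in limma). Of 42 splicing regulators and SR kinases, 39 had a peak, and 46 of 173 tested peaks were higher (26.6%) and 1 lower, with a median of 0.20. The largest gains were both in introns of Rbfox1, a tissue-specific splicing regulator, with log2 fold changes of 1.47 and 1.37. The lower one was at Clk4, an SR protein kinase (41, 58 and 34 against 18, 33 and 23, -0.83, SE 0.38, adjusted p = 0.074 in limma). At none of the peaks with scores given here did the genotypes overlap. On the score summed per gene, 5 of 43 core spliceosome genes were higher and 1 lower. Of 39 regulator genes 3 were higher and 0 lower. Over all tested protein-coding genes 25.7% were higher and 0.286% lower.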

How the data were processed

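DRIP-seq libraries (3 Ctrl, 3 Kmt5b sKO) were analysed, and the input libraries, 1 per genotype, were not used here as peak values. Per the study's methods, the authors trimmed reads (Trimmomatic 0.39), kept unique STAR 2.7.3a alignments to GRCm38, deduplicated (Picard 2.21.7), called peaks against input with Epic2 (listed as SICER 0.0.41 in the submitters' processing notes) and merged them. The deposited score is coverage per union peak scaled by Drosophila spike-in reads and rounded, with genes assigned by longest overlap. It is not a read count, so the authors' DESeq2 was not run; reads per library are listed by the study but were not used here, and the reads behind each score are not known.

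Here log2(score + 1) was tested with limma 3.58.1 (R 4.3.3; trended eBayes) over all 25815 autosomal peaks with mean score above 30, with Benjamini-Hochberg adjustment, and on scores summed per protein-coding gene. Calls needed adjusted p under 0.1 and fold change over 1.5. Fold changes are on the log2(score + 1) scale. The minimum applied to the mean of all 6 libraries, so a peak with a lower Ctrl mean could be tested through Kmt5b sKO alone. Among the named gains this held for the 0.8-kb peaks of Prpf38a and Rbm20, the 0.6-kb peak of Rbm25 and the peaks of Rbms2, Aqr, Lsm2 and Rbfox1. Without a minimum 40 peaks were higher, 38 of them shared with the main calls. The limma steps were tested on simulated data. All 6 score columns mapped to a sample. All 68 gene IDs matched GENCODE vM21, used for exons; peak starts are multiples of 200 bp counted from 0 and are given 1-based. The text names, per class, the densest gene and the largest and smallest change, the 8 largest separated gains, every peak called lower, the 5 genes with most peaks, every called gene, and 6 genes as background of their role. The genes, lists and splits were chosen with earlier results of these data known. P-values measure the spread between these libraries, as pooled over peaks. The prior degrees of freedom were infinite, so each SE and p-value used the variance expected at the peak's mean score. The spread of a single peak did not enter. With the variance of each peak alone, 18 peaks were called higher instead of 38.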

Additional observations from a re-analysis of the deposited data

How the results depend on the processing

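The replicate numbers did not pair the libraries (correlations of deviations -0.009, 0.011 and -0.027 for same-numbered libraries), and with the replicate number as a block 38 peaks were higher and 1 lower, and 7 genes higher and 0 lower, with the same median of 0.24.

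Scaling changed most. With equal totals 18 peaks were higher and 6 lower (Hnrnp 3 and 1, Srsf 0 and 1, Rbm 10 and 4, Sf3b 3 higher), 3 genes higher and 1 lower, and the median 0.04. Centred on the median peak it was 3 and 25 (Hnrnp 1 and 5, Srsf 0 and 3, Rbm 1 and 17, Sf3b 1 and Prpf 0 higher), 1 and 4 genes, and a median of -0.22. After quantile normalization it was 2 and 19 (Hnrnp 0 and 2, Srsf 0 and 3, Rbm 1 and 14, Sf3b 1 and Prpf 0 higher), 0 and 5 genes, and -0.07. A mean score over 100 left 91 peaks, 3 higher and 0 lower (Hnrnp 0, Srsf 0, Rbm 2, Sf3b 1, Prpf 0 higher, Rbm 0 lower), with a median of 0.13. A pseudocount of 10 gave 28 and 0 (Hnrnp 3, Srsf 0 higher, Rbm 0 lower). With the variance of each peak alone, 18 were higher (Hnrnp 3, Srsf 0, Rbm 10, Prpf 0). On adjusted p alone 60 were higher and 9 lower (Hnrnp 2, Srsf 2 and Rbm 5 lower, Rbm 36, Sf3a 1 and Prpf 7 higher), with 22 genes higher and 4 lower. With a fold change over 2 it was 7 and 0 (Hnrnp 1, Srsf 0, Rbm 4, Sf3b 1 and Prpf 1 higher, Rbm 0 lower) and 0 genes. Chosen after seeing the data, leaving out Rbms1 and Rbms3 gave 0 lower, and 13 higher and 0 lower for Rbm.

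Leaving out 1 library gave 29 to 43 peaks higher and 1 to 3 lower, a median of 0.18 to 0.31, and 6 to 10 genes higher and 0 to 1 lower. By class, 4 to 6 Hnrnp peaks were higher and 0 to 1 lower, 0 to 2 Srsf, 17 to 27 Rbm (0 to 3 lower), 4 to 6 Sf3b and 1 to 6 Prpf peaks higher.

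Small changes turned sign. After centring these were Sf3a3 (-0.03), and on the gene score Sf3b3 (-0.13), Rbms1 (-0.09), Rbms3 (-0.22, and -0.05 with equal totals) and Rbm20 (-0.17, with -0.01 at equal totals and -0.04 after quantile normalization). Leaving out 1 library gave -0.14 to 0.09 at Sf3a1 (peak and gene), -0.19 to 0.06 at Prpf19, -0.15 to 0.14 at the longer peak of Sf3b2 and -0.11 to 0.11 at Prpf38b (gene), each positive without Ctrl replicate 2, which gave 0.13 at Sf3b2. In the length classes, centring gave 5.88% of the shortest peaks of the set higher and 16.2% of the shortest and 0.387% of the longest other peaks. With 3 classes the latter were 47.0% and 6.41%. With 3 libraries a genotype and no counts, the reads behind each score are not known, and the causes of these shifts were not tested.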

Other observations

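Genes of the same prefixes on the X chromosome (Rbm3, Rbm10, Rbmx and Rbm41) had 11 peaks outside the comparisons above, of which 10 passed the minimum score when X and Y were included. By limma 0 were called higher and 0 lower, against 32.8% and 0.874% of all peaks tested with X and Y. The median log2 fold change of these X-linked peaks was 0.01, against 0.35. Their summed score was 687, 1041 and 735 in Ctrl and 777, 837 and 840 in Kmt5b sKO, so the genotypes overlapped.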
